A study of Mus musculus with 74 samples.

Results

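The comparison described here set YFP-positive sensory neurons sorted 3 days after spinal cord injury (SCI) against those sorted 1 day after it, and it used 24 of the 74 RNA-seq samples of the series. The samples were chosen by their titles: 12 wells at each day, 3 wells from each of 4 mice, so that the mouse was the replicate and 4 mice stood against 4. All mice were females of the Thy1YFP16 line aged 10-20 weeks, in which a Thy1 promoter drives the fluorescent protein in large sensory neurons of the dorsal root ganglion (DRG). SCI was labelled a T9/10 dorsal hemisection and described in the methods as a transverse cut of the dorsal column, which severs the ascending branch of these neurons in the spinal cord and leaves the peripheral branch whole. L4 ganglia were dissociated with papain and collagenase, filtered and sorted by flow cytometry into wells of about 100 YFP-positive cells, and libraries were made with the SMARTer Ultra Low RNA kit. All deposited wells were used, although the study dropped samples that its own outlier analysis picked, which the labels do not name. 2 mice of each day came from samples titled FACS and 2 from samples titled FACS2018. Neurons sorted in the same way from 6 naive mice (18 wells) and from 8 mice with a sciatic nerve crush (SNI, 24 wells, 4 mice at each day) were used beside them.

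A DRG neuron has a single axon that splits into a peripheral branch, which regrows after a cut, and a central branch in the spinal cord, which does not. After a peripheral cut the neurons switch on injury transcription factors such as Atf3, Jun and Sox11 and growth-associated proteins such as Gap43 and Sprr1a. Neurons in the ganglion are wrapped by satellite glia, their axons by Schwann cells, and glia supply much of the lipid metabolism of the ganglion.

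Reads on genes ranged from 37759032 to 83599972 per SCI mouse, and 16011 to 21680 genes had a read. The wells differed widely in their share of neuronal reads. In 17 of the 24 wells, 9 at day 1 and 8 at day 3, genes that mark neurons (10 genes such as Nefl, Snap25 and Tubb3) took 2.69% to 4.15% of reads, and those of satellite glia and Schwann cells (9 genes such as Fabp7 and Cdh19) took 0.167% to 1.05%. In the other 7 wells the glial share was above the neuronal one, at 3.18% to 14.1% against 0.00824% to 1.09%. The 15 genes that mark proprioceptors and low-threshold mechanoreceptors took 0.179% to 0.549% of reads in these 7 wells. They took 0.245% to 1.38% in the 17 wells, with overlap. The 7 glial wells were 3 of 12 at day 1, 1 in each of 3 mice, and 4 of 12 at day 3, of which 3 were all the wells of FACS2018 mouse 1. That mouse also had 11.7% of its reads on 7 fibroblast genes, against 0.0220% to 0.0779% in the other day 3 mice, and 0.932% on 10 macrophage genes, against 0.000201% to 0.00220%. In its 3 wells the fibroblast share (9.13%, 15.45% and 8.71%) was above the glial one (4.12%, 3.18% and 4.73%). The word glial thus means only a glial share above the neuronal one, and these 3 wells differ in composition from the glial wells of day 1. None of the 10 neuronal markers was at 0 reads in any mouse. Values below are for all wells unless the 17 neuron wells are named, in which FACS2018 mouse 1 of day 3 drops out and 4 mice stand against 3. Of the 18 naive wells 6 were glial, and the naive FACS2018 mice kept 1 neuron well each. Those wells had 1.14% of reads on neuronal and 4.15% on nociceptor markers (1d label), and 2.29% on neuronal and 1.21% on glial markers (3d label). In the neuron wells the neuronal share was 3.00% to 3.45% at day 1 and 3.01% to 3.90% at day 3 (exact permutation test, two-sided, p = 0.486), and the glial share was 0.428% to 0.816% and 0.323% to 0.543% (p = 0.257). The summed fibroblast share was apart in these wells, at 0.0318% to 0.117% against 0.0200% to 0.0294% (exact permutation test, p = 0.0571, the smallest that 4 against 3 mice allow). Its 7 genes did not move together, since 4 were higher at day 3 in these wells and 3 lower (median log2 fold change 0.18). Apod, 1 of the 7, had a median of 796 CPM per neuron well at day 1 and 122 CPM at day 3. In a bulk well, fewer cells of a type and less RNA per cell cannot be told apart.

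**Figure D1:**
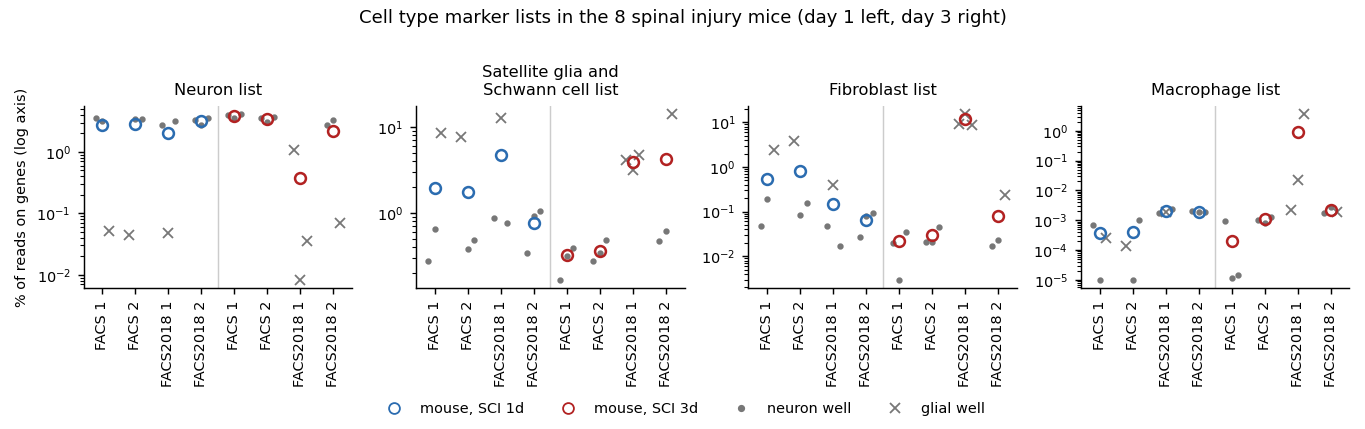
Percent of reads on genes that fell on 4 marker lists (neuron, satellite glia and Schwann cell, fibroblast, macrophage), on a log axis, for the 4 SCI 1d mice (blue) and the 4 SCI 3d mice (red). Large circles are mice, dots are neuron wells and crosses are glial wells. The 3 wells of FACS2018 mouse 1 at day 3 are all crosses, and that mouse stands far above the others for fibroblast genes, at 11.7%.

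No gene passed an adjusted p of 0.1 between day 3 and day 1 in edgeR's quasi-likelihood test (0% of 23507 genes tested, smallest adjusted p 0.453). At an unadjusted p under 0.05, 2508 genes differed, 692 higher at day 3 (2.94% of those tested) and 1816 lower (7.73%). This split turned with the factors of unwanted variation. Without them it was 1105 higher and 640 lower, and the median log2 fold change of all genes was 0.01 in place of -0.15. DESeq2 with the same factors called 1087 genes (4.62%), and 229 without them. In the neuron wells edgeR again called 0 genes, with 797 higher (3.52% of 22620) and 448 lower (1.98%) at an unadjusted p under 0.05, and DESeq2 without factors called 160. Directions and sizes below are thus descriptions of 8 mice, and no single gene held up across all genes by the main test.

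For 219 genes all 4 mice of day 3 lay above all 4 of day 1 (0.932%), and for 140 genes they all lay below (0.596%). In the neuron wells, with 3 mice at day 3, groups were apart for 485 genes in the higher direction (2.14%) and 369 in the lower (1.63%). Apart in the same direction in both were 103 and 97 genes. The neuron wells are part of the same reads, so the counts with and without glial wells are not independent. The values below are counts per 1e6 reads on genes (CPM) after TMM scaling, and mice are always given in the order FACS 1, FACS 2, FACS2018 1, FACS2018 2.

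**Figure D2:**
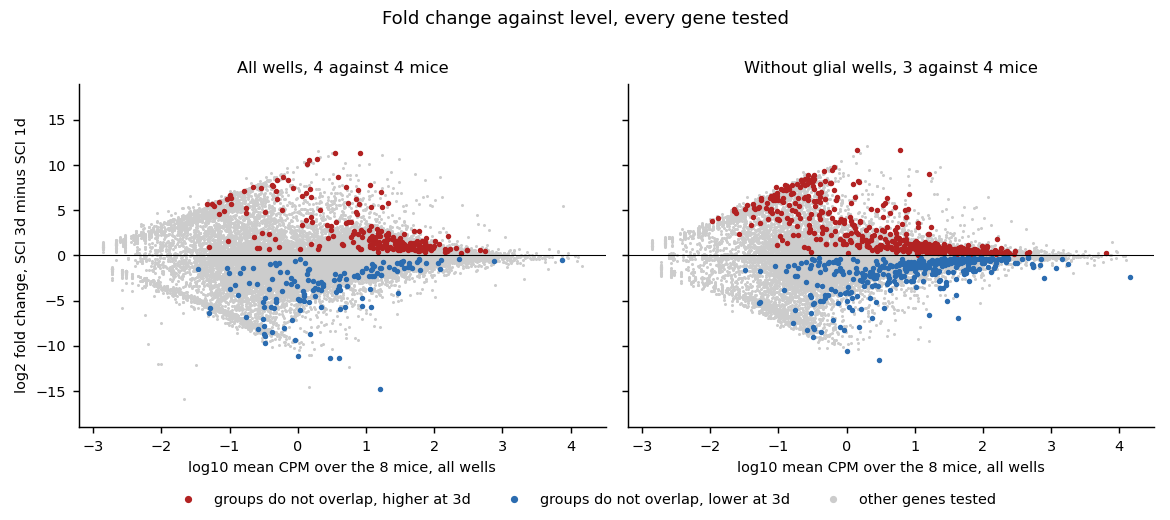
Log2 fold change of SCI 3d over SCI 1d for each gene tested (vertical axis) against the log10 of its mean CPM (horizontal axis), with all wells on the left and without the glial wells on the right. Coloured points are genes whose groups did not overlap, 219 higher and 140 lower on the left and 485 and 369 on the right. Large changes sit mostly at low levels in both panels.

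Cirbp was the most highly expressed of the 12 genes first named as lower at day 3 by the rule given below. It encodes a cold-inducible RNA-binding protein (chr10:80165985-80172786, plus strand, GRCm38). Its day 1 mice measured 152, 112, 254 and 196 CPM and its day 3 mice 83.7, 69.6, 57.3 and 39.3 CPM. The groups did not overlap, and the log2 fold change was -1.45 ± 0.40 (SE; unadjusted p = 0.00159, edgeR). The neuron wells gave 165, 134, 152 and 209 CPM against 86.4, 74.5 and 52.4 CPM, a mean of 165 ± 32.0 (SD, n = 4) against 71.1 ± 17.3 (n = 3), and so a level 2.32-fold higher at day 1. Single wells are not replicates. The 9 neuron wells of day 1 ran from 129 to 215 CPM and the 8 of day 3 from 50.8 to 108 CPM. The 3 glial wells of day 1 ran from 54.3 to 440 CPM and overlapped the neuron wells of day 3. In neuron wells of naive mice Cirbp lay at 14.0 to 75.8 CPM, below every day 1 mouse. The log2 fold change was -0.87 within the FACS set and -2.27 within the FACS2018 set.

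Chordc1 and Senp8 went the opposite way. Chordc1, a co-chaperone that binds Hsp90 (chr9:18292125-18317442, plus strand), measured 70.8, 55.5, 93.3 and 51.3 CPM at day 1 and 176, 153, 202 and 124 CPM at day 3. Every day 3 mouse was above every day 1 mouse, with a log2 fold change of 1.27 ± 0.36 (unadjusted p = 0.00203). The neuron wells gave 91.7, 72.0, 131 and 54.6 CPM against 181, 164 and 166 CPM, which was 1.95-fold higher at day 3. The glial wells of day 1 held 0.381 to 1.13 CPM, far under the neuron wells, whereas the wells of FACS2018 mouse 1 at day 3 held 11.1 to 208 CPM. Naive neuron wells lay at 118 to 230 CPM, a range that held all 3 day 3 mice and 1 day 1 mouse. Senp8, a protease that acts on the ubiquitin-like protein Nedd8 (chr9:59734259-59750710, minus strand), measured 11.5, 13.5, 12.4 and 12.8 CPM at day 1 and 46.6, 40.8, 62.8 and 14.2 CPM at day 3. The day 1 mice were nearly equal, and FACS2018 mouse 2 of day 3 lay just above them. Its log2 fold change was 1.62 ± 0.42, and in neuron wells it was 1.18 ± 0.31 (14.8, 16.9, 17.4 and 13.6 CPM against 48.1, 43.7 and 18.9 CPM).

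By the rule for naming genes (groups apart, mean of 1 CPM or more, smallest p), 167 genes qualified as higher at day 3 and 73 as lower, and the first 12 of each were taken. Of these, 8 higher and 10 lower genes were also apart in the neuron wells. Abcf1, an ABC-family factor of translation initiation, had 34.6, 54.6, 47.4 and 49.96 CPM at day 1 and 92.7, 60.0, 116 and 150 CPM at day 3 (log2 fold change 1.15 ± 0.34), and overlapped in neuron wells (0.56 ± 0.26). Lman2, a lectin of the early secretory pathway, had 16.5, 13.6, 5.49 and 12.1 CPM against 36.8, 24.6, 206 and 85.1 CPM, and its neuron wells gave 21.3, 17.3, 5.37 and 12.9 CPM against 38.0, 26.4 and 20.3 CPM. The large values of Lman2 at day 3 thus came with glial wells, and its groups overlapped in the neuron wells. Tfrc, the transferrin receptor that takes up iron, had 60.0, 36.4, 21.5 and 11.5 CPM against 71.2, 73.5, 138 and 113 CPM, but its groups overlapped in the neuron wells (77.9 CPM at day 1 against 73.4 CPM at day 3). Soat1, which esterifies cholesterol for storage, had 29.1, 27.3, 16.2 and 11.4 CPM against 57.5, 35.3, 392 and 29.1 CPM, with the top value in the mouse that had no neuron well, and its neuron wells were apart by less than 1 CPM (12.2 to 37.69 CPM against 37.74 to 59.4 CPM). Ralgps2, a guanine nucleotide exchange factor, was apart in neuron wells too, at 9.97 to 16.0 CPM against 21.5 to 37.8 CPM.

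The other higher genes were at or near 0 at day 1. Cd109, a GPI-anchored surface protein, reached 0.0950 CPM at most at day 1 and 0.599 to 35.0 CPM at day 3. Plau, the urokinase plasminogen activator, reached 0.0957 CPM at most and then 0.166 to 5.41 CPM. Ltbp1, which binds latent TGF-beta in the matrix, reached 0.166 CPM at most and then 0.399 to 127 CPM, with the top value again in FACS2018 mouse 1. Aldh1a7, an aldehyde dehydrogenase, and Ppara, a nuclear receptor for fatty acids, had 0 reads in all 4 mice of day 1, so no fold is given. Their day 3 mice lay at 0.0690 to 10.8 CPM and 0.0348 to 13.3 CPM, and in the neuron wells Ppara was at 0 in FACS2018 mouse 2 as well.

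Of the lower genes, Nfatc3, a calcium-regulated transcription factor, had 7.30, 5.80, 4.61 and 8.45 CPM at day 1 and 1.39, 3.48, 0 and 1.28 CPM at day 3. The groups were apart in the neuron wells too, which are part of the same reads. These wells gave 9.20, 7.55, 6.50 and 9.01 CPM against 1.43, 3.73 and 1.36 CPM, 3.71-fold higher at day 1 (log2 fold change -2.20 ± 0.77). Tmem11, a protein of the mitochondrial inner membrane, had 42.3, 61.3, 101 and 48.3 CPM against 24.6, 36.9, 21.5 and 20.5 CPM, but in neuron wells a day 1 mouse (39.0 CPM) lay below a day 3 mouse (39.5 CPM). Enox1, a plasma membrane oxidase, had 17.9, 19.6, 14.8 and 16.6 CPM against 9.62, 14.8, 0.0921 and 4.66 CPM, and stayed apart in the neuron wells at 17.7 to 25.6 CPM against 6.17 to 15.8 CPM. Cidea, a lipid droplet protein, was split by set at day 1, at 12.1 and 13.02 CPM in the FACS mice and 58.2 and 121 CPM in the FACS2018 mice, against 11.2, 9.98, 0.0230 and 8.58 CPM at day 3. Its neuron wells were apart in the same way, at 15.6 to 129 CPM against 10.7 to 11.6 CPM. The share of nociceptor markers, given below with Gap43, was split by set at day 1 too, and its part in the Cidea values was not tested.

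Fmo5, a flavin monooxygenase, had a day 1 range of 3.05-46.7 CPM in all wells and of 3.25-3.95 CPM in neuron wells, against 1.20 to 2.93 CPM at day 3. The part of the glial wells in its difference was not tested. Efnb1, an ephrin ligand, was apart in all wells (4.78 to 49.4 CPM against 0 to 3.34 CPM) and overlapped in neuron wells (0.280 to 5.10 CPM against 0 to 0.550 CPM). Zfp513, Hook2, Cbln4, Oprk1 and Rps27 were low at both days and lower at day 3. Zfp513, a zinc finger protein, had 0.665 to 5.79 CPM at day 1 and 0 to 0.344 CPM at day 3, and Hook2, a microtubule adaptor, 1.05 to 4.45 CPM and 0 to 0.180 CPM. The neuron wells were apart for both, at 0.867 to 8.13 CPM against 0.0534 to 0.355 CPM for Zfp513 and at 1.48 to 4.75 CPM against 0 to 0.0932 CPM for Hook2. Oprk1, the kappa opioid receptor, had 0.737 to 3.87 CPM at day 1 and 0 reads in all 4 mice of day 3, with 1.03 to 4.12 CPM in the neuron wells of day 1. Cbln4, a secreted synaptic organiser, ranged from 0.0150 to 14.3 CPM at day 1, with 0.0111 CPM in a single mouse of day 3. Its neuron wells had 0.0160 to 18.6 CPM against 0 to 0.0115 CPM.

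**Figure D3:**
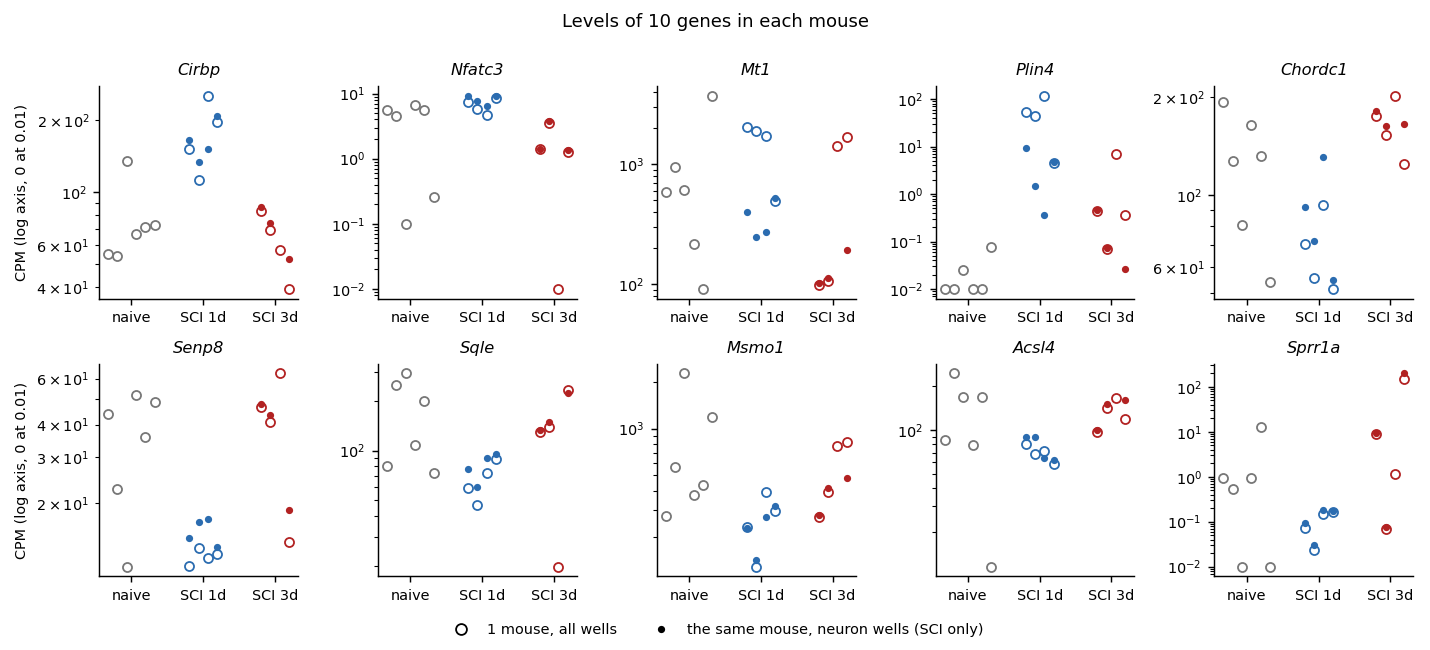
TMM-scaled CPM per mouse on a log axis for 10 genes in naive, SCI 1d and SCI 3d mice, with all wells as open symbols and, for the SCI mice, neuron wells alone as filled symbols; values of 0 are drawn at 0.01. Cirbp sits lower at day 3 and Chordc1 higher in both kinds of symbol. Open and filled symbols part for Mt1 and Plin4 at day 1.

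The list of cholesterol synthesis enzymes stood higher at day 3. Neurons and glia make sterols from acetyl-CoA by the mevalonate pathway, in which Hmgcs1 acts early, Sqle epoxidises squalene, and Cyp51, Msmo1, Nsdhl and Hsd17b7 trim the sterol ring. Of 20 enzymes 19 were higher at day 3 (95%, against 42.9% of all genes) and 1 was lower, with a median log2 fold change of 0.68 against -0.15 over all genes. An unadjusted p under 0.05 was found for 4 of the 20, all higher (Hmgcs1, Msmo1, Nsdhl and Sc5d), where 2.94% of all genes had one and were higher. In the neuron wells 17 were higher (85%, against 46.1% of all genes) and the median was 0.51 against -0.06. There 6 had an unadjusted p under 0.05 (3.52% of all genes had one and were higher), again all higher and among them Hmgcs1, Sqle, Cyp51, Msmo1 and Hsd17b7. Idi1 and Sqle were among the 3 apart there (2.14% of all genes were apart and higher). None passed the adjusted threshold in edgeR.

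Promoters of 3 of these enzymes are shown as RefSeq gives them on GRCm38.p6, from 250 bases before to 50 after the annotated start, because sterol-regulated genes are read through the sterol regulatory element. Capitals mark matches on either strand to the core letters TCACNCCAC, a spelling that 1.24% of 32851 promoters of this length held. The list's genes had 18 promoters in the table, and a match lay in 1 of them, that of Hmgcs1 (chr13:119690101-119690400, plus strand). Idi1 (chr13:8885356-8885655, plus strand) and Msmo1 (chr8:64733529-64733828, minus strand) held none in this window.
Hmgcs1: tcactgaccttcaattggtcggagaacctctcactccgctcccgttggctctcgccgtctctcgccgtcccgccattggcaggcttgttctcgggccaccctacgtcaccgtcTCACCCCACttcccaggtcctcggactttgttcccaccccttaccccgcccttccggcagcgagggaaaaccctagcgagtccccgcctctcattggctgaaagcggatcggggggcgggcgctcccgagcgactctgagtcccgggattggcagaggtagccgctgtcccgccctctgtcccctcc
Idi1: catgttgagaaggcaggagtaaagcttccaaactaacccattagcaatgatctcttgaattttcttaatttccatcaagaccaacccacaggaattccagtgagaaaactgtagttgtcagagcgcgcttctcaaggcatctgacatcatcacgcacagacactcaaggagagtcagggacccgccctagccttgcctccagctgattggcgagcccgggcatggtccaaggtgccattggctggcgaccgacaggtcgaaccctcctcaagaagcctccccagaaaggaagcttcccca
Msmo1: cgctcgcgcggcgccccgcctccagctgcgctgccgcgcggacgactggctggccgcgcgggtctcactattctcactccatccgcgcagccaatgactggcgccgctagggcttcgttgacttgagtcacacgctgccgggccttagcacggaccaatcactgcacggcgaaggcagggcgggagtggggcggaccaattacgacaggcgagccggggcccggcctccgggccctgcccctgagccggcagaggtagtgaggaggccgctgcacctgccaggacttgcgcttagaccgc

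Sqle, squalene epoxidase (chr15:59315077-59331192, plus strand), had 76.9, 60.1, 89.5 and 95.3 CPM against 133, 149 and 224 CPM in the neuron wells, 2.10-fold higher at day 3 (1.06 ± 0.29, unadjusted p = 0.00215). Its day 3 values over all wells were 129, 139, 19.7 and 231 CPM, so the mouse without a neuron well was the single low one.

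Hmgcs1, a synthase early in the pathway, overlapped between days at 435, 241, 701 and 328 CPM against 406, 640, 852 and 978 CPM, and in neuron wells at 263 to 484 CPM against 420 to 775 CPM (0.78 ± 0.24). Msmo1 had 234, 130, 392 and 297 CPM against 271, 390, 773 and 823 CPM (1.02 ± 0.32, unadjusted p = 0.00467), with a neuron-well log2 fold change of 0.75 ± 0.21. For these enzymes the lower side of day 3 reached the upper side of day 1. Idi1, an isomerase, was low throughout, at 1.55 to 2.71 CPM against 3.07 to 5.98 CPM in neuron wells. Naive neuron wells lay at 494 to 2141 CPM for Hmgcs1 and 318 to 1258 CPM for Msmo1, above the highest day 1 mouse in each case (484 and 316 CPM). For Sqle the naive mice ranged from 52.97 to 585 CPM and covered both days. These naive ranges include the FACS2018 naive mice with 1 neuron well each.

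**Figure D4:**
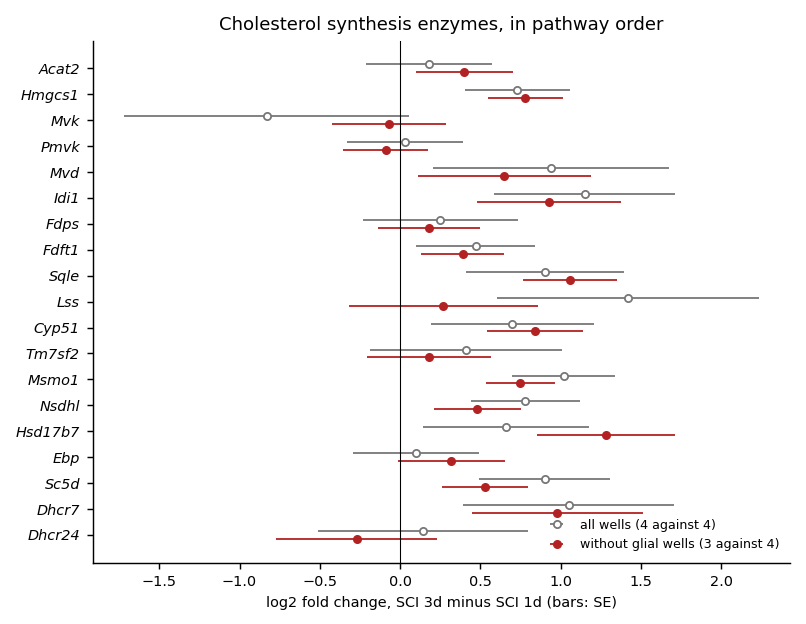
Log2 fold change of SCI 3d over SCI 1d with its SE for 19 of the 20 enzymes of cholesterol synthesis in pathway order, for all wells and without the glial wells. Points above 0 are higher at day 3: 18 of the 19 with all wells and 16 of the 19 without the glial wells.

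The list of genes that sense, take up or store sterols had a median nearer to 0, and the difference between the lists was not tested. Of 16 genes such as Srebf2, Insig1 and Npc1, 9 were higher and 7 lower, with a median of 0.40 that became 0.07 without FACS2018 mouse 1 of day 3 and -0.08 in the neuron wells. There 3 of the 16 were higher at an unadjusted p under 0.05 (3.52% of all genes), among them Stard4, a sterol carrier chosen after its values were seen (1.07 ± 0.41), and 0 were lower. Fatty acid synthesis had 11 of 21 genes higher and a median of 0.04. Acsl4, which activates long polyunsaturated fatty acids, was the 1 of 21 members whose groups were apart (0.932% of all genes were apart and higher). It had 79.5, 68.6, 71.1 and 58.6 CPM against 96.2, 141, 165 and 119 CPM. It was also the 1 member apart in the neuron wells, part of the same reads, where 2.14% of all genes were apart and higher. There it had 62.4 to 89.7 CPM against 99.3 to 159 CPM (log2 fold change 0.82 ± 0.31). Fads1, a fatty acid desaturase, was lower at -2.18 ± 0.74 over all wells, with overlapping groups in neuron wells (14.3 to 25.0 CPM against 1.19 to 16.4 CPM).

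Of the targets of PPAR receptors and the lipid droplet genes, Plin4 was high at day 1 above all in glial wells. Plin4, which coats lipid droplets, had 52.1, 43.7, 116 and 4.42 CPM against 0.444, 0.0697, 6.88 and 0.360 CPM, with overlap between FACS2018 mouse 1 of day 3 and FACS2018 mouse 2 of day 1 (log2 fold change -6.47 ± 1.22, unadjusted p = 3.7e-05). Its neuron wells had 9.17, 1.45, 0.356 and 4.72 CPM against 0.458, 0.0745 and 0.0267 CPM, with overlap (-4.32 ± 1.71). Its glial wells of day 1 held 254 to 349 CPM and the neuron wells of day 1 a median of 1.20 CPM. The glial wells of day 3 were low, at 0 to 18.9 CPM in FACS2018 mouse 1 and 1.24 CPM in FACS2018 mouse 2. Those of FACS2018 mouse 1 held more fibroblast than glial reads, so they are not like those of day 1. Naive mice had 0.0780 CPM at most. Angptl4, a lipase inhibitor induced by fasting, had 40.3, 6.81, 14.4 and 14.7 CPM against 0.996, 0.913 and 2.40 CPM in the neuron wells, 13.3-fold higher at day 1. Over all wells its log2 fold change was -0.08 ± 1.19, with 98.3 CPM in FACS2018 mouse 1 of day 3. Plin3 was also apart in neuron wells, at 5.20 to 11.7 CPM against 0.187 to 4.44 CPM. Plin2 pointed the opposite way (1.56 ± 0.67), resting on 603 CPM in FACS2018 mouse 2 of day 3. The whole list of 15 PPAR target and lipid droplet genes had 7 higher and 8 lower, with a median of -0.08, and -0.17 in the neuron wells. Apod, a member of the fibroblast list that is read here as a glial and fibroblast gene, was chosen after its values were seen. It was also lower in the day 3 neuron wells, with 27.3 to 320 CPM against 144 to 1872 CPM per well. The part of Apod-expressing cells in the differences of Angptl4 and Plin3 was not tested.

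Metallothioneins, which bind zinc and copper and answer to metals and glucocorticoids, were lower in the neuron wells of day 3. Mt1 had 401, 246, 274 and 525 CPM against 102, 114 and 194 CPM there, 2.65-fold higher at day 1 with groups apart (-1.35 ± 0.36, unadjusted p = 0.00162). Over all wells it had 2029, 1881, 1700 and 493 CPM against 98.6, 106, 1417 and 1679 CPM, high wherever a glial well was included. Mt2, its neighbour, had 18.2, 18.4, 12.8 and 40.5 CPM against 5.61, 5.20 and 14.5 CPM in neuron wells, where the groups overlapped (-1.32 ± 0.53). Naive neuron wells ranged widely, from 77.0 to 1766 CPM for Mt1. The glial wells of day 1 held 4537 to 10096 CPM of Mt1, against 189 to 1187 CPM in the neuron wells of that day. Of the 9 satellite glia and Schwann cell markers 7 were also lower at day 3 in the neuron wells (77.8%, against 53.9% of all genes, median -0.78). The summed fibroblast share given above was lower as well, while 4 of its 7 genes were higher. The part of these cells in the differences of Mt1 and Mt2 was not tested.

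The promoters of both genes are shown because the genes are neighbours with like log2 fold changes in the neuron wells. Capitals mark matches on either strand to TGCNCNC, the core of the metal response element. This short spelling was in 51.03% of all promoters of the length, and 3 or more matches were in 7.10%. Mt1 (chr8:94178839-94179138, plus strand) held 3 and Mt2 (chr8:94172368-94172667, plus strand) held 6.
Mt1: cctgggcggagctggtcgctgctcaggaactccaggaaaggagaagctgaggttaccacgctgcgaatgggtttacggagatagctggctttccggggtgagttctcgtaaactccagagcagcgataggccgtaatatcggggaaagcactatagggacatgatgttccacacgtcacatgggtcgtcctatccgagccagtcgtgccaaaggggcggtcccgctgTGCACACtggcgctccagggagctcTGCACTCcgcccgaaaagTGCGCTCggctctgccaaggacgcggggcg
Mt2: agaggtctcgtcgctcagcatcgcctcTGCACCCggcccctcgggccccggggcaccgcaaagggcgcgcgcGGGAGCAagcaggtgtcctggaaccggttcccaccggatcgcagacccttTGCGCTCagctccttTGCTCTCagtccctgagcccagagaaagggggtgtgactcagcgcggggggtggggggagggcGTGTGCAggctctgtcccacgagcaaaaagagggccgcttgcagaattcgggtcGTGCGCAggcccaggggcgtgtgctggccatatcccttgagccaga

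The list of glucocorticoid-responsive genes holds Mt1 and Mt2 as well. Of its 14 genes 11 were lower at day 3 (78.6%, against 57.1% of all genes), with a median of -0.44, and in the neuron wells 12 were lower (85.7%, against 53.9% of all genes) with a median of -0.70 against -0.06 over all genes. Sgk1, a kinase induced by steroids, and Tsc22d3, a steroid-induced repressor of inflammation, were apart in neuron wells beside Mt1, 3 of 14 where 1.63% of all genes were apart and lower. Sgk1 had 109, 257, 115 and 94.5 CPM against 62.0, 89.8 and 83.0 CPM, and Tsc22d3 790, 873, 906 and 848 CPM against 529, 680 and 770 CPM. The gap between the groups was small for both. Immediate early genes such as Fos, Egr1 and Nr4a1, which dissociation of tissue also induces, had 12 of 17 lower (70.6%, against 57.1% of all genes) and a median of -0.81. In neuron wells 15 of 17 were lower (88.2%, against 53.9% of all genes) with a median of -0.61 and 0 at an unadjusted p under 0.05.

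The injury transcription factors had 18 of 24 higher at day 3 (75%, against 42.9% of all genes) and a median of 0.24. In the neuron wells 14 of 24 were higher (58.3%, against 46.1% of all genes) with a median of 0.07, and 0 had an unadjusted p under 0.05. Atf3, a stress-induced factor that drives regeneration genes, had 92.2, 63.4, 168 and 314 CPM at day 1 and 317, 32.2, 168 and 178 CPM at day 3. The spread within each day was wider than any difference between days (0.10 ± 0.68, and 0.54 ± 0.81 in neuron wells). Jun, its partner, was at 0.04 ± 0.42, and at 0.02 ± 0.33 in neuron wells. Smad1, which transmits BMP signals, was at 0.65 ± 0.48, and at 0.10 ± 0.33 in neuron wells. Sox11, a transcription factor of developing neurons, had 99.3, 142, 33.2 and 144 CPM against 311, 103, 1.43 and 279 CPM (0.42 ± 0.85), the low value in the mouse with no neuron well. In the neuron wells it had 129, 185, 45.9 and 153 CPM against 321, 110 and 372 CPM (1.04 ± 0.60), with overlap. Pparg, a nuclear receptor of lipid metabolism, reached 12.3 CPM at day 1 and 2.73 CPM at day 3, with a value under 1 CPM in mice of both days (-3.52 ± 1.82, and -3.19 ± 2.06 in neuron wells).

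Of 24 axotomy-induced neuronal genes 13 were higher at day 3 (54.2%, against 42.9% of all genes), with a median of 0.28. An unadjusted p under 0.05 was found for 2, both higher (2.94% of all genes). Without FACS2018 mouse 1 of day 3 the median was 0.78. In the neuron wells 19 of 24 were higher (79.2%, against 46.1% of all genes) with a median of 0.50, of which 3 had an unadjusted p under 0.05 (3.52% of all genes). Sprr1a, a small proline-rich protein of regenerating axons, had 0.0718, 0.0238, 0.147 and 0.165 CPM at day 1 and 9.12, 0.0697, 1.17 and 150 CPM at day 3. A single mouse carried the high end, and FACS mouse 2 of day 3 lay within the range of day 1 (8.44 ± 2.13, unadjusted p = 0.000806, and 9.25 ± 2.13 in neuron wells). Gap43, a protein of growth cones, was split by set at day 1 and not at day 3, at 2.42, 5.37, 574 and 1390 CPM against 75.2, 487, 183 and 844 CPM (-0.17 ± 1.35, and -0.26 ± 1.59 in neuron wells). Nociceptor markers were split by set at day 1 too, at 0.02775%, 0.03395%, 0.323% and 1.39% of reads over all wells. At day 3 they took 0.0942%, 0.307%, 0.000199% and 0.134%. The part of nociceptors in the Gap43 values was not tested. Within the FACS set its log2 fold change was 6.10 and within the FACS2018 set -0.91. Nefh, the heavy neurofilament of large neurons, had 1387, 1380, 803 and 1240 CPM against 3138, 1963, 136 and 719 CPM (-0.19 ± 0.27), with the lowest value in the mouse that had no neuron well. Its sign was the opposite in the neuron wells (0.30 ± 0.24), with 1780, 1765, 1129 and 1322 CPM against 3239, 2100 and 826 CPM.

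Genes of neuronal excitability were lower at day 3 with all wells, and much less so once FACS2018 mouse 1 or the glial wells were left out. Of 26 voltage-gated sodium and potassium channels 22 were lower (84.6%, against 57.1% of all genes), with a median of -0.95. An unadjusted p under 0.05 was found for 4, all lower (7.73% of all genes). The median of these channels was -0.18 without FACS2018 mouse 1 of day 3 and -0.19 in the neuron wells, where 0 had an unadjusted p under 0.05. Scn8a, the sodium channel of nodes of Ranvier, had 179, 201, 189 and 176 CPM against 232, 233, 0.575 and 131 CPM (-1.42 ± 0.74), which became -0.16 ± 0.20 in the neuron wells. With FACS2018 mouse 1, the low value, left out of all wells it was -0.15. Calcium channels (14 genes) went from a median of -0.96 to -0.33, transmitter and sensory receptors (24 genes) from -0.88 to -0.02, genes of synaptic release (21 genes) from -0.60 to 0.03 and axonal transport motors (21 genes) from -0.32 to 0.09. Syt2, a calcium sensor of fast release, overlapped over all wells. It was the 1 of 21 genes of synaptic release whose groups were apart in the neuron wells, where 1.63% of all genes were apart and lower. It had 208, 207, 182 and 154 CPM there against 144, 131 and 140 CPM, 1.36-fold higher at day 1 (-0.46 ± 0.21, unadjusted p = 0.0389, edgeR).

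**Figure D5:**
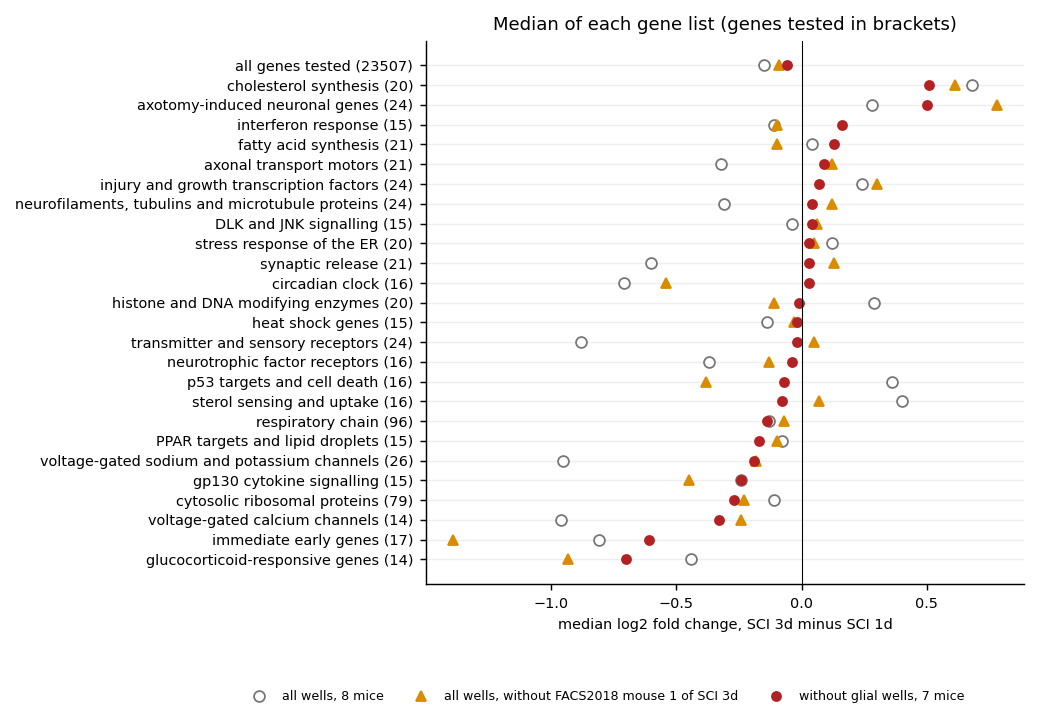
Median log2 fold change of SCI 3d over SCI 1d for each gene list, for all wells, without FACS2018 mouse 1 of SCI 3d, and without the glial wells. Medians of channel, receptor and synaptic lists lie well below 0 with all wells and near 0 in the other series, while cholesterol synthesis stays above 0 in all 3, at 0.68, 0.61 and 0.51.

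Genes of protein synthesis and respiration shifted little but mostly the same way. Of 79 cytosolic ribosomal protein genes 61 were lower at day 3 (77.2%, against 57.1% of all genes, median -0.11). In the neuron wells 67 were lower (84.8%, median -0.27), against 53.9% of all genes lower there. For 96 respiratory chain genes 72 were lower in the neuron wells (75.0%, median -0.14). Rps27 had 1.50 to 5.99 CPM at day 1 and 0 to 1.43 CPM at day 3, and its level is given as uncertain, since ribosomal protein genes have near-identical copies and the sharing of reads among them was not tested. ER stress genes (20 genes) had a median of 0.12, heat shock genes (15 genes) of -0.14 and interferon response genes (15 genes) of -0.11, and in the neuron wells the medians were 0.03, -0.02 and 0.16. Nociceptor markers (13 genes), which these large neurons should lack, had a median of -1.91, and of -1.47 in the neuron wells, where their summed share was 0.0340% to 1.39% at day 1 and 0.0942% to 0.307% at day 3. That overlap came with a wide spread at day 1.

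The day label was compared in the same way in naive mice, whose samples carry a 1d or 3d label without injury (3 mice each). edgeR called 0 genes between these labels (0%), with 2002 at an unadjusted p under 0.05 and 1830 called by DESeq2 with factors. The test of the difference between the SCI and the naive day contrast called 4 genes (0.017%), and 0 without factors; the 4 were Klrd1, Ptgs2, P2ry10 and Klrb1b, which are no part of the naming rule and were high in a single naive mouse. Cirbp differed by -0.10 ± 0.47 between the naive labels, against -1.48 ± 0.41 in SCI mice in the same fit, in which the naive mice were split by label, and the difference of the contrasts was -1.38 ± 0.61 (adjusted p = 0.459, edgeR). Chordc1 differed by -0.19 ± 0.39 in naive mice, against 1.31 ± 0.35 in SCI mice in that fit, with a difference of contrasts of 1.50 ± 0.53 (adjusted p = 0.420). Sqle had the opposite sign in naive mice (-0.85 ± 0.65).

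SNI was the closest comparison, with sorted cells of the same line, ganglion and days. It held glial wells too, 3 of 12 at day 1 and 4 of 12 at day 3, of which 3 were all the wells of its FACS2018 mouse 1 of day 3. SNI values are for all wells unless neuron wells are named, so they are not values of neurons alone. edgeR called 1 gene between SNI 3d and SNI 1d (0.00425%, Chrnb4, adjusted p = 0.0880) and 0 for the difference between the SCI and SNI contrasts (0%, 1786 at an unadjusted p under 0.05, 732 called by DESeq2 with factors). Cirbp was at 0.04 ± 0.39 after SNI, and at -0.30 ± 0.31 in neuron wells, so that the SCI contrast was lower by -1.49 ± 0.56 (adjusted p = 0.613) and by -0.98 ± 0.43 in neuron wells (adjusted p = 0.757). Chordc1 was at 0.47 ± 0.35 after SNI and Msmo1 at 0.21 ± 0.32, against 1.27 and 1.02 after SCI. Hmgcs1 was at 0.80 ± 0.33 after SNI against 0.73 ± 0.33 after SCI, a difference of -0.06 ± 0.46 between the contrasts, and Plin4 was at -6.46 ± 1.55 against -6.47 ± 1.22. None of these differences between SCI and SNI passed the adjusted threshold.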

How the data were processed

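Per the labels, libraries of about 100 sorted cells were made with the SMARTer Ultra Low RNA kit, which does not keep strand. The submitters' processing notes name cutadapt, STAR 2.5.3a, HTSeq 0.6.1, DESeq2 and mm10. The authors deposited whole-number HTSeq counts per gene for each well (53379 genes). Reads on no gene (42.6% to 66.9% per well) were left out. Gene positions came from GENCODE on GRCm38. Fold changes and p-values of the authors' own comparisons and 123 per-sample columns were not used.

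Counts of the 3 wells of a mouse were summed. Genes with 20 or more reads in 1 mouse or more (23507) were tested with edgeR 4.0.16 (quasi-likelihood, TMM, R 4.3.3) over 22 sorted mice in 5 groups with 2 centred RUVr factors, adjusted by Benjamini-Hochberg at 0.1. A well was called glial where satellite glia and Schwann cell genes took more reads than neuronal genes. Alternatives used limma 3.58.1, DESeq2 1.42.0, other factors, filters and scalings, the set by title (FACS or FACS2018), a replicate block, single wells and each SCI mouse left out; 6 were added after seeing the data. Tests are two-sided and scripts were tested on simulated data. Among 276 pairs of the 24 wells the lowest chi-square per degree of freedom was 76.2, so no library was a copy of another.

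Named genes were the 12 per direction with the smallest p, groups apart, a mean of 1 CPM and a gene symbol, 13 genes of the injury response and up to 3 per gene list (37 lists), 142 in all, of which the report prints a part, and some items are not reported here. Genes given for their neuron wells alone (among them Sqle, Idi1, Cyp51, Hsd17b7, Angptl4, Plin3 and Tsc22d3), Sc5d, Stard4 and Scn8a were chosen after their values were seen. The comparison, members and lists were chosen with earlier results of these data known.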

Additional observations from a re-analysis of the deposited data

Results flagged for a closer look

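28 groups of 4 mice (14 measures at each day) were examined for a mouse far from the others, and chance alone sets apart about 1 in 20 such groups. FACS2018 mouse 1 of SCI 3d stood apart in 3 measures, with 11.7% of reads on fibroblast genes against 0.0220% to 0.0779% in the other 3 mice, 0.932% on macrophage genes against 0.000201% to 0.00220%, and 0.0102% on genes of endothelium and mural cells against 0.00176% to 0.00226%. FACS2018 mouse 2 of SCI 1d, the 1 mouse of that day without a glial well, had 1.84% of reads on mitochondrially encoded genes against 3.03% to 3.12% in the other 3.

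The difference between the days was not the same in SCI and naive mice for 4 genes. Its adjusted p (edgeR, test of the difference between the contrasts) was 0.0177 for P2ry10, 0.0214 for Ptgs2 and 0.0411 for both Klrd1 and Klrb1b. All 4 were high in the same naive mouse, FACS2018 mouse 1 of the 3d label, at 119, 186, 174 and 58.9 CPM, and reached at most 0.0301, 0.0421, 0.0631 and 0.150 CPM in an SCI mouse. Without factors of unwanted variation none of them passed.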

How the results depend on the processing

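Between SCI 3d and SCI 1d the count of 0 genes was also 0 in edgeR or limma under every alternative but that of wells as separate libraries, which called 2446; that fit treats 3 wells of a mouse as independent. DESeq2 called 1087 with factors, 229 without, and 160 without glial wells and without factors. With each SCI mouse left out in turn edgeR called 0, and the count at an unadjusted p under 0.05 ran from 1440 (without FACS2018 mouse 1 of day 3) to 2870. Genes apart numbered 485 higher and 369 lower without glial wells. The naive label contrast went from 0 to 1830 in DESeq2 and to 1944 without glial wells, and back to 0 there without factors. The SCI against naive contrast went from 4 to 1718 in DESeq2, 701 without glial wells, 0 there without factors, and 0 with no or uncentred factors. SCI against SNI went from 0 to 732 in DESeq2, and SNI from 1 to 949 in DESeq2 and to 0 with no or uncentred factors, no filter or no glial wells. The cause was not tested.

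Of the 52 genes with values in the report that were recomputed, 40 kept their sign in every alternative, and 33 were called in 1 alternative or more (70 of 1490 values). The following had the opposite sign of log2 fold change. Atf3 was -0.15 in voom, -0.49 in the FACS2018 set, -0.35 by wells, and -0.32 to 0.57 with a mouse left out. Jun was -0.11 with uncentred factors, -0.03 with DESeq2 factors, size factors or a mean count of 10, -0.00 with no filter, -0.55 in the FACS set, -0.07 by wells, -0.01 without glial wells at 10 CPM, and -0.28 to 0.27 with a mouse left out. Sox11 was -0.46 with uncentred factors and -0.27 to 1.15 with a mouse left out, and Cyp51 -0.28 to 1.16. Gap43 was 2.37 in voom, 1.74 by wells, 6.10 in the FACS set, 0.26 with the set as a term, and -0.87 to 1.03 with a mouse left out. Nefh was 0.14 by wells, 0.80 in the FACS set, 0.31 with no factors, 0.23 in DESeq2 without them, 0.30 in the 8 SCI mice, 0.30, 0.46, 0.42 and 0.44 in the 4 fits without glial wells, and -0.79 to 0.46 with a mouse left out. Angptl4 was 2.39 in the FACS2018 set, 0.31 with uncentred factors, 0.80 with none and in the 8 SCI mice, 0.76 in DESeq2 without them, 0.42 with the set as a term, and -1.53 to 0.69 with a mouse left out. In the FACS2018 set Sgk1 was 1.07, Mt1 0.42, Tsc22d3 0.45 and Plin3 0.81; Tsc22d3 was 0.03 and Plin3 0.42 with no factors and in the 8 SCI mice, and Plin3 0.34 in DESeq2 without them. Scn8a was 0.21 in the FACS set. Without glial wells the difference between the days had the opposite sign for genes with 20 reads (941.3 more at day 3) and for the percent of reads on neuronal (0.208), fibroblast (-0.0565), endothelial and mural (-8.42e-05) and macrophage genes (-2.20e-05).

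Replicate numbers were shared between the days but nothing in the labels ties them. The deviations of same-numbered mice from their group means correlated at 0.0233 to 0.122, above 0.1 in 3 of 4 pairs, and both mice correlated best with each other in 1 pair, so the numbers were not taken to pair the mice. With the replicate block the count was 0, with factors (2184 at an unadjusted p under 0.05) and without (1025); under the block Gap43 was 0.70 with factors and 0.21 without, Jun -0.03 and Angptl4 0.43 without.

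These values are limited by wells of about 100 cells, 7 of 24 of them glial, and by 4 mice against 4. The effect of depth was not measured. In the main fit the edgeR p-values rest on the spread within groups over 22 sorted mice, with 2 factors of unwanted variation in the model.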
